A study of Mus musculus with 27 samples.

Results

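Carboxylesterases are serine hydrolases that split esters, amides and thioesters, and most of those made in the liver sit inside the endoplasmic reticulum (ER) of the hepatocyte. There they hydrolyse drugs and other foreign esters, and several of them also act on stored triglyceride and cholesteryl ester, whose fatty acids can be built into very low density lipoprotein (VLDL). In the mouse the family has expanded by tandem duplication into the Ces1, Ces2 and Ces3 subfamilies, each with several closely related genes. The 10 genes described here, Ces1c, Ces1d, Ces1e, Ces1f, Ces1g, Ces2a, Ces2c, Ces2e, Ces3a and Ces3b, are rows of a table of 23191 named genes, and they were chosen from the levels measured in these same livers. Their differences between groups are therefore given as a description, and the count of members that passed a test supports nothing about the family. All 10 members passed the filter on low counts in every comparison, and the lowest count of any of them in any library was 176.

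Liver mRNA was sequenced from 27 male C57BL/6J mice in 4 groups. Control littermates and mice with a whole-body deletion in Hgfac (HGFAC-KO), which encodes a secreted serine protease that activates hepatocyte growth factor, were 8 weeks old at the start and received chow or a diet rich in fat and sucrose (HF/HS) for 4 weeks. On chow there were 7 control and 6 HGFAC-KO livers, and on HF/HS 7 of each genotype. Libraries held 36056177 to 57298657 counts, and levels are given as CPM, a gene's counts relative to the library's counts in named genes after scaling by the trimmed mean of M values (TMM). The deletion takes out part of the first exon and the whole of the second, and Hgfac still had counts in HGFAC-KO livers. On chow its level ran from 183 to 220 CPM over the control livers and from 65.6 to 84.7 CPM over the HGFAC-KO livers, and on HF/HS from 247 to 293 CPM and from 81.6 to 101 CPM. No HGFAC-KO library overlapped a control library of the same diet.

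In the GRCm38 assembly (GENCODE M21) the family lies on chromosome 8 in a pair of clusters, each on 1 strand. Ces1c, Ces1d, Ces1e, Ces1f and Ces1g lie on the minus strand among 9 genes (the Ces1 genes and Ces5a) at chr8:93020214-93535830, with Ces1c at chr8:93099015-93131283, Ces1d at chr8:93166068-93197838, Ces1e at chr8:93201218-93229619, Ces1f at chr8:93256236-93279747 and Ces1g at chr8:93302369-93337308. Ces2a, Ces2c, Ces2e, Ces3a and Ces3b lie on the plus strand among 11 genes at chr8:104734003-105150109, with Ces2a at chr8:104734003-104741634, Ces2c at chr8:104847068-104854483, Ces2e at chr8:104926260-104934672, Ces3a at chr8:105048601-105058413 and Ces3b at chr8:105083753-105093929. The members have 12 to 14 exons and coding sequences of 1665 to 1716 bases. Between members of a subfamily, coding identity was 72.4% to 81.6% in Ces1, 82.4% to 83.6% in Ces2 and 95.3% for Ces3a against Ces3b, and 54.0% to 59.2% between subfamilies.

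The end of the coding sequence is shown because that of Ces1c, the plasma enzyme, differs from those of the other members. Proteins ending in a histidine, any residue, glutamate and leucine, or a close variant, are retrieved to the ER. Of the 10 members, 9 ended in a glutamate codon followed by a leucine codon before the stop. The exception was Ces1c, the esterase of mouse plasma, which ended in a histidine and a lysine codon, as did Ces1b, which is not a member. Ces3a and Ces3b had a proline codon in place of the histidine codon. Among the 9 other protein-coding carboxylesterase genes 4 ended in glutamate and leucine codons, and Ces1a, Ces1b, Ces2f, Ces4a and Ces5a did not. The last coding bases of GENCODE M21 transcripts follow, 5′ to 3′ on the coding strand, with the last 4 codons before the stop in capitals.
Ces1c: cctactgaacacACAGAACACAAAtga
Ces1b: cctactgagcacAGAGAACACAAAtga
Ces1d: tcccacagggaaCATGTTGAGCTCtga
Ces1e: ctgccgacagaaCACACTGAGCTGtga
Ces1f: ccccagccatacCACAATGAGCTGtga
Ces1g: tcccatagggaaCATGTTGAACTGtga
Ces2a: tctcaggacaagCATGCAGAGCTGtag
Ces2c: tctcaggacaagCACAGGGAGCTTtag
Ces2e: tctcaggagaggCACAAAGAGTTGtag
Ces3a: agcaggaaagttCCAGAGGAGCTCtga
Ces3b: agcaggaaagttCCAGAGGAGCTCtga

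Such similarity also bears on the counts. The libraries were read in 50-base pairs, and of the 50-base stretches of each member's main transcript, the share also present in a transcript of another gene was 42.2% for Ces2c, 30.9% for Ces3a, 26.1% for Ces3b, 22.2% for Ces2a and 17.0% for Ces1c. For the other 5 members it was between 1.28% and 3.36%. Ces2c shared most with the pseudogene Ces2d-ps, Ces2a with the predicted gene Gm7208, Ces1c with Ces1b, and Ces3a and Ces3b with each other. How the counting treated reads that match several genes is not given in the sources used here, so the levels of these 5 members are uncertain to that extent.

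The order of the members' levels is given per length, as CPM per kilobase of the gene's combined exons. In control livers on chow, Ces1c was highest at 681 and Ces3a second at 560 CPM per kilobase, and the ranges of these neighbours over mice overlapped. Ces1d, the triacylglycerol hydrolase of the ER, followed at 226 CPM per kilobase, apart from both neighbours in the order on this length. Ces2a at 141, Ces1f at 134 and Ces3b at 103 CPM per kilobase formed a middle set in which each neighbour overlapped the next. Ces2e at 48.4, Ces1e at 45.9 and Ces1g at 41.3 CPM per kilobase formed a lower set that also overlapped. Ces2c was lowest at 9.39 CPM per kilobase, below every other member in every mouse of that group.

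The order was different on HF/HS. At its top in controls, Ces3a at 688 CPM per kilobase stood above Ces1c at 666 CPM per kilobase, with overlapping ranges as on chow, and in HGFAC-KO mice Ces1c stood first on both diets. In its middle part, Ces2a stood at rank 4 of the 10 members in both genotypes on chow and at rank 6 in both on HF/HS, where it lay at 54.5 CPM per kilobase in controls and 48.8 CPM per kilobase in HGFAC-KO mice, within the range of Ces1e in each. Ces3b stood at rank 6 on chow and rank 4 on HF/HS in both genotypes. With the longest transcript as the length, Ces2a went from rank 5 to 6 and Ces3b from rank 6 to 5. With unique 50-base positions as the length, Ces1c and Ces3a in control chow were at 1071 and 1066 CPM per kilobase, and Ces1f at 238 stood above Ces2a at 224 CPM per kilobase. On this length Ces3a stood first on HF/HS in both genotypes, above Ces1c by 1309 to 1047 CPM per kilobase in controls, where the ranges did not overlap, and by 1274 to 1133 CPM per kilobase in HGFAC-KO mice, where they did. On this length and on the longest transcript Ces1d in control chow overlapped its lower neighbour, Ces1f.

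**Figure D1:**
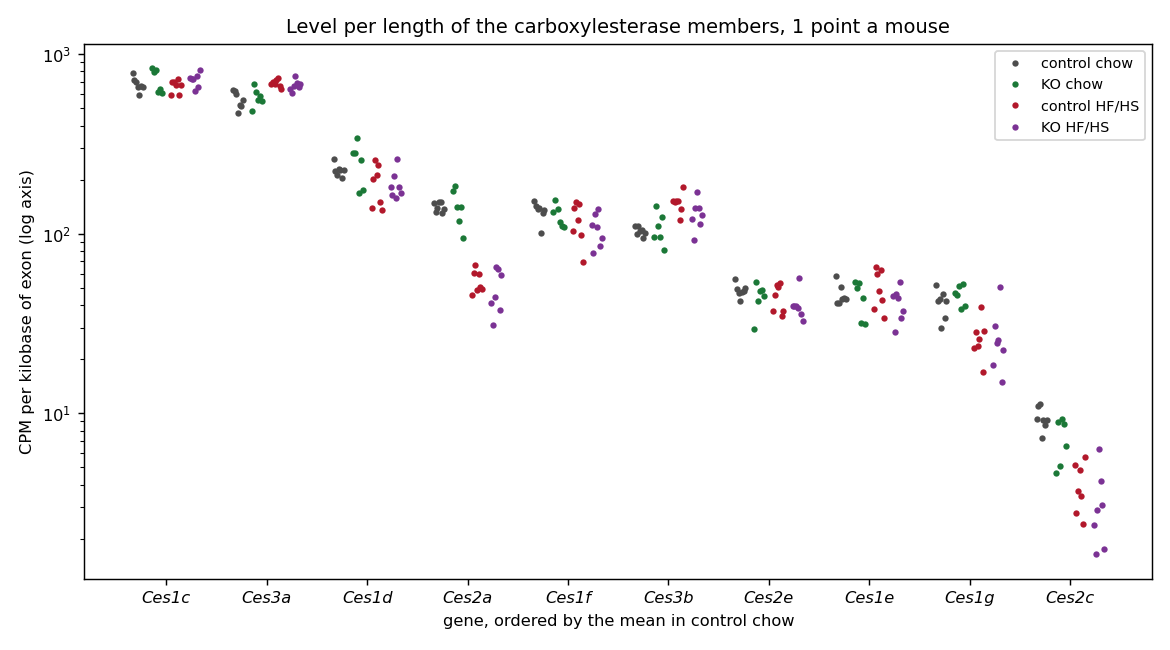
Level of each member in CPM per kilobase of exon, on a log axis, with 1 point for each mouse, coloured by group and ordered by the control chow mean. Ces1c and Ces3a lie at the top in all 4 groups, Ces2c at the bottom, the points of Ces2a lie lower on HF/HS than on chow in both genotypes, and those of Ces2c do so in controls.

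The first question of the design is what the diet did in control mice. Among the members, Ces2a and Ces2c were lowest relative to chow, at a fitted 0.386 and 0.428 of their chow level, Ces1g was lower by a smaller amount, Ces3a and Ces3b were higher, and Ces1c, Ces1d, Ces1e, Ces1f and Ces2e lay within overlapping ranges. In the edgeR test across all 13525 genes, 5 of the 10 members passed an adjusted p of 0.05, beside 10.5% of all genes tested. Of these, 3 were lower on HF/HS (5.60% of all genes) and 2 were higher (4.93%). Groups did not overlap for 4 members, Ces2a, Ces2c, Ces3a and Ces3b, beside 3.56% of all genes. The members were chosen on these levels, so nothing is read from the counts. The median log2 difference was −0.15 over the members and 0.00 over all genes.

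Ces2a, a hydrolase of drug esters and acylglycerols, was the 1 member whose diet groups did not overlap in either genotype. In controls on chow its lowest, median and highest values were 309, 327 and 356 CPM, and on HF/HS they were 107, 119 and 158 CPM. The highest mouse on HF/HS therefore lay below the lowest on chow by a wide margin. In HGFAC-KO mice the values were 223, 332 and 437 CPM on chow and 73.5, 104 and 155 CPM on HF/HS. These also did not overlap, although the HGFAC-KO mice on chow were more spread out than the controls. The fitted log2 difference was −1.37 ± 0.08 (SE) in controls and −1.53 ± 0.19 (SE) in HGFAC-KO mice, or 2.59-fold and 2.89-fold lower.

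Ces2c, an acylglycerol hydrolase of the same subfamily, was also lower on HF/HS, from a much lower level. In controls the lowest, median and highest values were 16.6, 21.2 and 25.9 CPM on chow and 5.52, 8.46 and 13.1 CPM on HF/HS, without overlap. In HGFAC-KO mice they were 10.6, 17.7 and 21.4 CPM on chow and 3.76, 6.65 and 14.6 CPM on HF/HS. There 1 of 7 mice on HF/HS, replicate 4, lay inside the chow range, and the HGFAC-KO livers on chow included a pair of low ones, replicates 1 and 3. The log2 difference was −1.22 ± 0.17 (SE) in controls and −1.17 ± 0.30 (SE) in HGFAC-KO mice. In HGFAC-KO mice Ces2c no longer passed the edgeR threshold when any 1 of 9 of the 13 mice was left out (replicates 2, 4, 5 and 6 on chow and 1, 2, 3, 6 and 7 on HF/HS), while the log2 difference stayed between −1.44 and −1.07.

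Ces2e, with 83.2% of its coding sequence identical to Ces2a and 83.6% to Ces2c, did not separate the diets. Control livers held 114 to 150 CPM on chow against 93.9 to 144 CPM on HF/HS, and HGFAC-KO livers 79.4 to 145 CPM against 87.7 to 153 CPM. The log2 differences were −0.12 ± 0.10 (SE) in controls and −0.14 ± 0.13 (SE) in HGFAC-KO mice. Within a mouse, the ratio of Ces2a to Ces2e counts had a median of 2.40 in controls on chow, with a range of 2.34 to 3.12, and of 1.13 on HF/HS, with a range of 0.841 to 1.27. In HGFAC-KO mice the range was 1.83 to 5.11 on chow and 0.689 to 1.59 on HF/HS, so this ratio separated the diets in both genotypes without depending on the scaling between libraries. It is not corrected for length and compares mice, not the levels of the genes. The ratio of Ces2a to Ces2c overlapped between the diets, with medians of 15.6 and 17.6 in controls.

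The starts of these 3 genes are shown because Ces2a and Ces2c moved with the diet while Ces2e, which lies in the same cluster, did not separate it. RefSeq sequences of build GRCm38.p6, from 250 bases before to 50 bases after the annotated start, were matched for 7 of the 10 members. AGGTCA (a nuclear receptor half-site, found in 16.3% of all 32851 promoters of this length), TATAAA (13.6%), CCAAT (37.4%) and CACGTG (7.15%) were searched on both strands, and no matches shared letters with another motif in the windows shown. The Ces2a window held AGGTCA and CCAAT, the Ces2c window CCAAT, and the Ces2e window none of the 4. Of the other matched members, Ces1c held CCAAT, Ces1g and Ces3b held TATAAA and CCAAT, and Ces1e held none. The windows were 65.05% identical between Ces2a and Ces2c, 54.9% between Ces2a and Ces2e and 53.2% between Ces2c and Ces2e. The other pairs of matched members ran from 43.5% (Ces1e and Ces3b) to 51.5% (Ces1c and Ces1g). Capitals mark the matches on either strand, and a match is a description of the letters only.
Ces2a, plus strand, chr8:104733753-104734052: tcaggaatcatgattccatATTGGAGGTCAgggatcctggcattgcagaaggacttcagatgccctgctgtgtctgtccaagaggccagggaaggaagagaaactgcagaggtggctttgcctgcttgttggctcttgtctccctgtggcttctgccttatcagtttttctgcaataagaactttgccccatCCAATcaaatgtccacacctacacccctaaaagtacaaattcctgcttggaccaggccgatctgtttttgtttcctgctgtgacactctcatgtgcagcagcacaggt
Ces2c, plus strand, chr8:104846818-104847117: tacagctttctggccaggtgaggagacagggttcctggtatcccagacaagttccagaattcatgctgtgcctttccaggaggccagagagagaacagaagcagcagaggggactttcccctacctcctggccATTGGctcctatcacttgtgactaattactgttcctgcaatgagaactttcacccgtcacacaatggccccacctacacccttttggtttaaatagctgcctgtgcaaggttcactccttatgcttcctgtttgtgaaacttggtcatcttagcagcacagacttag
Ces2e, plus strand, chr8:104926010-104926309: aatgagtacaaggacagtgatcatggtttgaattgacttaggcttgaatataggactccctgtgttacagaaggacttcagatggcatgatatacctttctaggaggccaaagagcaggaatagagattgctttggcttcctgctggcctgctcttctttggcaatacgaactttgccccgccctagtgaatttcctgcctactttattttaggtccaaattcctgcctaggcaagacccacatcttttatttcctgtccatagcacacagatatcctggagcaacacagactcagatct

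**Figure D2:**
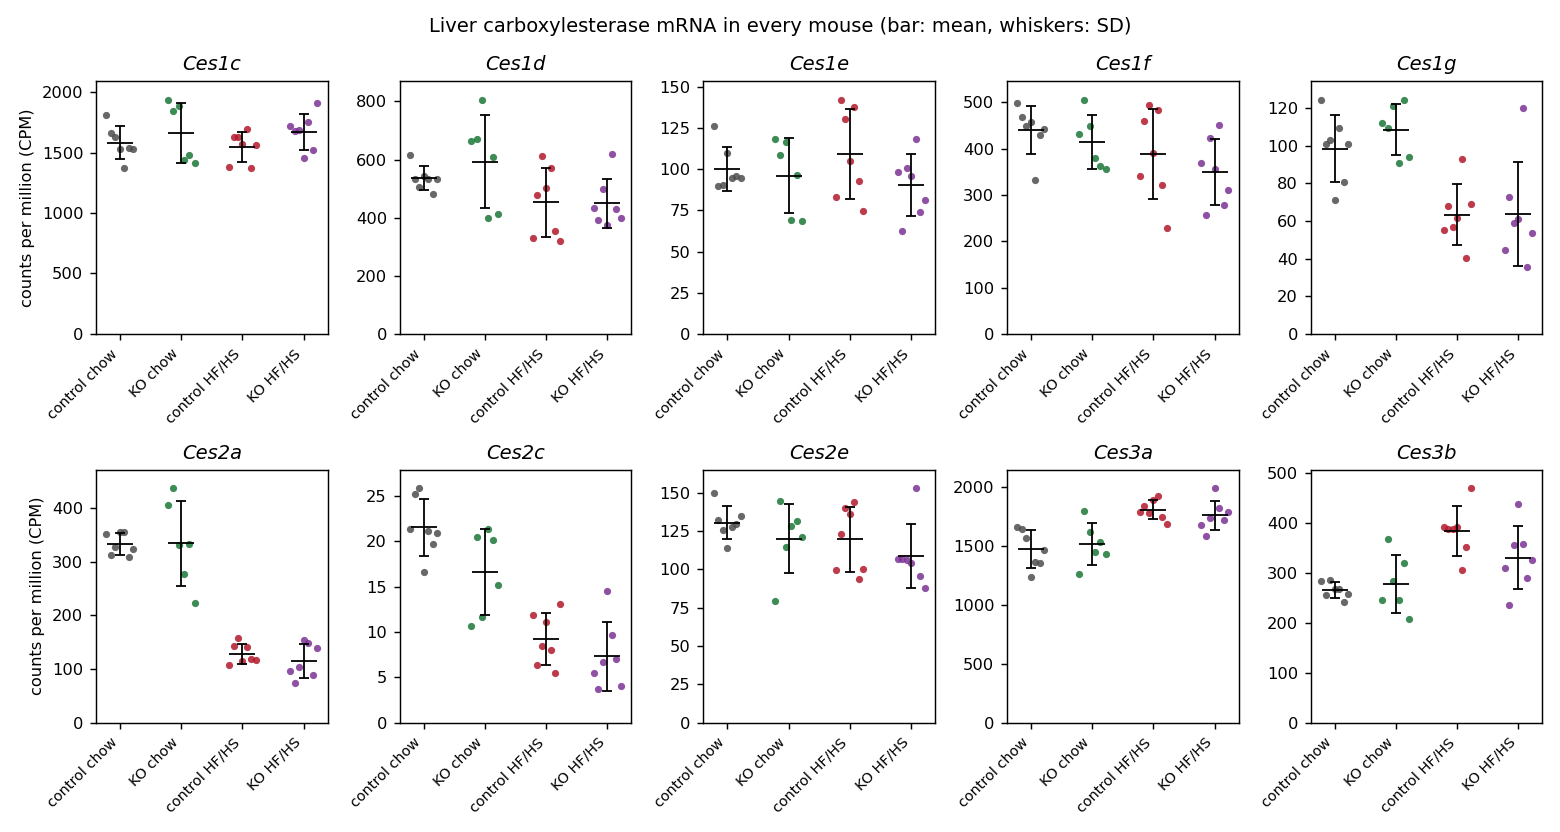
CPM of each of the 10 members in every mouse, in 4 groups of 6 or 7, with the mean as a bar and the SD as whiskers and every axis starting at 0. Ces2a falls from 309 to 356 CPM on chow to 107 to 158 CPM on HF/HS in controls, while the groups of Ces1c, Ces1e and Ces2e overlap throughout.

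The Ces3 members were higher on HF/HS in controls, and in HGFAC-KO mice neither passed the edgeR threshold. Ces3a, an abundant liver esterase, had lowest, median and highest values of 1239, 1464 and 1660 CPM in controls on chow and 1687, 1785 and 1924 CPM on HF/HS. The control groups did not overlap, although the highest mouse on chow and the lowest on HF/HS were close. In HGFAC-KO mice they were 1264, 1492 and 1793 CPM on chow and 1588, 1737 and 1988 CPM on HF/HS, and these overlapped. The log2 difference was 0.30 ± 0.07 (SE) in controls and 0.22 ± 0.08 (SE) in HGFAC-KO mice. In HGFAC-KO mice Ces3a passed with DESeq2 and in none of the other alternatives.

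Ces3b, its close relative, was at a lower level with a larger diet difference in controls. There the lowest, median and highest values were 242, 267 and 285 CPM on chow and 305, 388 and 468 CPM on HF/HS, without overlap. In HGFAC-KO mice they were 207, 264 and 367 CPM on chow and 236, 325 and 437 CPM on HF/HS, and 1 of 7 mice on HF/HS lay above all mice on chow. The log2 difference was 0.53 ± 0.07 (SE) in controls and 0.25 ± 0.14 (SE) in HGFAC-KO mice. The difference between these differences, the genotype by diet interaction, was −0.28 ± 0.16 (SE).

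In the Ces1 cluster 1 of the 5 members, Ces1g, passed the test in controls, where 10.5% of all genes passed and 5.60% passed as lower, and nothing is read from this count. Ces1g, an ER lipid hydrolase also called Es-x, had lowest, median and highest values of 71.0, 101 and 124 CPM in controls on chow and 40.4, 61.9 and 93.0 CPM on HF/HS. Of the 7 controls on HF/HS, 6 lay below all controls on chow. In HGFAC-KO mice the values were 90.7, 111 and 124 CPM on chow and 35.7, 59.0 and 120 CPM on HF/HS, with 6 of 7 below all mice on chow and replicate 5 within their range. The log2 difference was −0.63 ± 0.16 (SE) in controls and −0.76 ± 0.22 (SE) in HGFAC-KO mice. The latter did not pass the edgeR threshold in the 2 groups alone, and it passed with DESeq2, with limma, with the replicate number as a block and in a single fit of all 27 mice. Without HGFAC-KO replicate 5 on HF/HS it was −0.99 and passed in edgeR.

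Ces1d and Ces1f, ER hydrolases that take part in mobilizing triglyceride for VLDL, overlapped between the diets in both genotypes. Control livers held 481 to 615 CPM of Ces1d on chow against 321 to 611 CPM on HF/HS, and HGFAC-KO livers 397 to 806 CPM against 376 to 620 CPM. The log2 difference was −0.24 ± 0.14 (SE) in controls and −0.39 ± 0.16 (SE) in HGFAC-KO mice, and the groups overlapped in both. Ces1f lay at 333 to 498 CPM on chow against 228 to 493 CPM on HF/HS in control livers, and at 356 to 505 CPM against 258 to 451 CPM in HGFAC-KO livers, with log2 differences of −0.18 ± 0.15 (SE) and −0.24 ± 0.13 (SE).

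Ces1e, known as egasyn, the protein that binds beta-glucuronidase in the ER, showed no separation by diet. Control livers held 89.8 to 126 CPM on chow against 74.6 to 142 CPM on HF/HS, and HGFAC-KO livers 68.6 to 118 CPM against 62.3 to 118 CPM, with log2 differences of 0.13 ± 0.14 (SE) and −0.09 ± 0.16 (SE). Ces1c, the plasma esterase, overlapped between the diets throughout and had the smallest SE of the 5 Ces1 members. It lay at 1373 to 1813 CPM on chow against 1376 to 1691 CPM on HF/HS in control livers, and at 1410 to 1936 CPM against 1456 to 1906 CPM in HGFAC-KO livers, with log2 differences of −0.03 ± 0.07 (SE) and 0.01 ± 0.09 (SE).

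In HGFAC-KO mice as a whole, 2 of the 10 members, Ces2a and Ces2c, passed the test of HF/HS against chow, both lower on HF/HS and none higher, beside 5.89% of all 13613 genes passing, 2.73% lower and 3.17% higher. Without HGFAC-KO replicate 2 on chow, 467 genes passed in place of 802. At an unadjusted p of 0.05, 5 members passed, beside 22.4% of all genes. DESeq2 called 4 members and 1401 of all genes, and limma 3 members and 774 of all genes. Groups did not overlap for 1 member, Ces2a, beside 3.03% of all genes. Members past the threshold in controls and not in HGFAC-KO mice were not shown to differ between the genotypes. In the test of the interaction, 0 of the 10 members passed in edgeR, in DESeq2 and in limma, 0 had an unadjusted p below 0.05 (3.63% of all genes), and 0% of all 13932 genes passed.

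**Figure D3:**
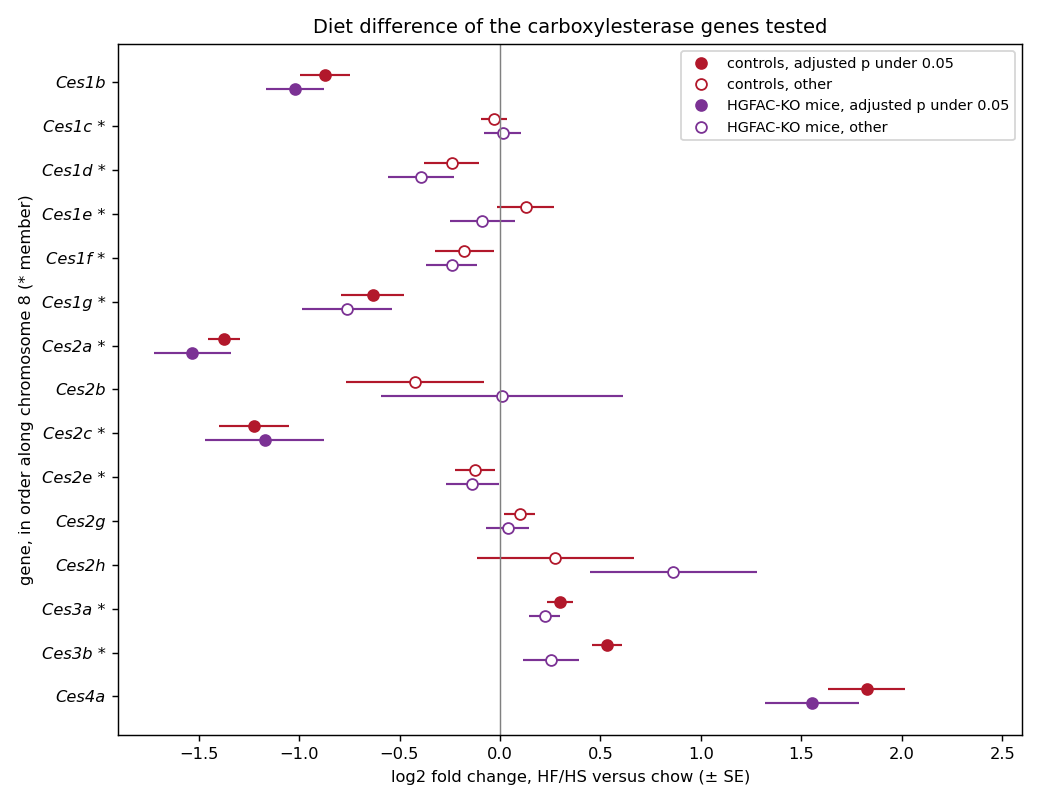
Fitted log2 fold change of HF/HS against chow with its SE (whiskers) for the 15 carboxylesterase genes tested in both genotypes, in their order along chromosome 8, with filled points where adjusted p was under 0.05 and stars for the members. In controls the points run from −1.37 for Ces2a to 1.82 for Ces4a, with Ces2e at −0.12 between them.

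The summed level of the members overlapped between the diets, while the Ces2 and Ces3 shares of it did not. In controls the 10 members summed to between 4579 and 5643 CPM on chow and between 4499 and 5499 CPM on HF/HS, and in HGFAC-KO mice to between 4338 and 5999 CPM and between 4469 and 5547 CPM. They took a median of 0.506% of all named counts in controls on chow and 0.525% on HF/HS. Within that sum the Ces2 members made up 8.98% to 10.998% in controls on chow and 4.78% to 5.69% on HF/HS, and in HGFAC-KO mice 7.97% to 10.04% and 4.11% to 5.62%. The Ces3 members made up 32.0% to 36.4% and 40.2% to 47.5% in controls, and 28.7% to 37.7% and 39.2% to 48.1% in HGFAC-KO mice. Neither the Ces2 nor the Ces3 share overlapped between the diets in either genotype. The Ces1 share did, at 53.4% to 57.7% and 47.8% to 54.2% in controls and 52.7% to 61.9% and 46.5% to 55.2% in HGFAC-KO mice. These shares are of CPM without correction for length, so they compare mice and not the levels of the subfamilies. They follow from the member values above and are no separate evidence.

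**Figure D4:**
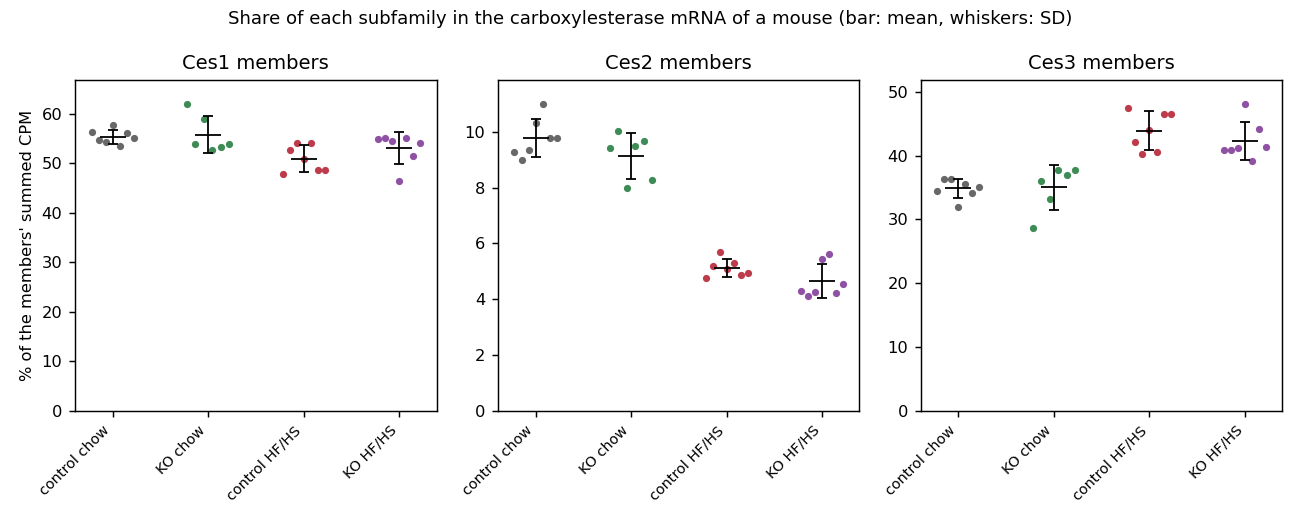
Share of the Ces1, Ces2 and Ces3 members in the summed CPM of the 10 members, in percent, for every mouse, with mean (bar) and SD (whiskers). The Ces2 share lies at 8.98% to 10.998% in controls on chow and 4.78% to 5.69% on HF/HS, and the Ces3 share is higher on HF/HS in both genotypes.

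The other question of the design is what loss of HGFAC did on each diet. On chow 0 of the 10 members passed the edgeR test of HGFAC-KO against control, beside 0.00737% of all 13571 genes, and limma also called 0. DESeq2 called 0 as well, but it gave an adjusted p for only 1993 genes. A member outside these could not be called, so this 0 adds little. In edgeR 1 member had an unadjusted p below 0.05, beside 5.98% of all genes. This was Ces2c, whose log2 difference was −0.38 ± 0.16 (SE), with 3 of 6 HGFAC-KO mice below all controls. Groups overlapped for all 10 members, beside 0.125% of all genes without overlap. The log2 differences of the other members lay between −0.12 for Ces2e and 0.15 for Ces1d. Several members were more variable in HGFAC-KO mice on chow than in controls on chow: Ces1d had an SD of 159 against 41.4 CPM, Ces2a of 79.2 against 20.3 CPM and Ces3b of 58.2 against 15.3 CPM, a difference in spread that was not tested.

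On HF/HS, edgeR, DESeq2 and limma again called 0 of the 10 members between the genotypes, 0 had an unadjusted p below 0.05 (9.64% of all genes), and 0.0148% of all 13544 genes passed in edgeR. Groups overlapped for all members, beside 0.0812% of all genes without overlap. The log2 differences ran from −0.34 ± 0.29 (SE) for Ces2c to 0.11 ± 0.07 (SE) for Ces1c, and 8 of the 10 were below 0, beside 50.5% of all genes. On chow 4 of the 10 were below 0, beside 48.8% of all genes, and nothing is read from either count. The comparisons share groups, so the same control mice on HF/HS enter both the diet and the genotype differences.

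Some of the other carboxylesterase genes, those of the annotated family that are not members, also differed between the diets. They are the genes that the choice of members left over, so they are not free of that choice. Of 9 such symbols, 5 had enough counts to be tested, and in each genotype 2 passed, Ces1b and Ces4a, beside 10.5% of all genes in controls and 5.89% in HGFAC-KO mice. Ces1b, the neighbour of Ces1c with 88.8% identical coding sequence, fell from 72.5 ± 14.6 CPM (SD, n = 7) to 39.6 ± 5.80 CPM (SD, n = 7) in controls, a log2 change of −0.87 ± 0.12 (SE, edgeR adjusted p = 0.000377). In HGFAC-KO mice it fell from 70.0 ± 17.9 CPM (SD, n = 6) to 34.4 ± 5.66 CPM (SD, n = 7), a log2 change of −1.02 ± 0.14 (SE, edgeR adjusted p = 0.000857). The groups did not overlap in either genotype, whereas Ces1c beside it did, and 11.6% of the 50-base stretches of Ces1b are shared with other genes.

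Ces4a, which ends the second cluster and shares no 50-base stretch with another gene, rose. Its range in controls went from 1.57 to 3.27 CPM on chow (n = 7) to 5.73 to 11.7 CPM on HF/HS (n = 7), a log2 change of 1.82 ± 0.19 (SE, edgeR adjusted p = 2.4e-05). In HGFAC-KO mice the range went from 1.37 to 3.46 CPM (n = 6) to 4.04 to 11.2 CPM (n = 7), a log2 change of 1.55 ± 0.23 (SE, edgeR adjusted p = 0.00126), again without overlap. Ces2g at 29.8 to 49.3 CPM over all mice had log2 differences of 0.10 ± 0.08 (SE) and 0.04 ± 0.11 (SE), and Ces2b and Ces2h stayed below 1 CPM and did not pass. Ces1a, Ces1h and Ces2f were also below 1 CPM in every mouse, and Ces5a had no count in any library. Between the genotypes none of these genes passed in edgeR, and Ces2b on chow was the 1 gene with an unadjusted p below 0.05, with a log2 difference of −1.08 ± 0.44 (SE, adjusted p = 0.801).

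Correlations between members were taken over all 27 mice with the group means subtracted. Pearson's r was above 0 in 42 of the 45 pairs of members, with a median of 0.38, and these points share their libraries, depth and scaling. The share over all pairs of genes was not computed, so nothing is read from this count. Within single groups r ran from 0.69 to 0.97 for Ces1d with Ces1e. For Ces3a with Ces3b it ran from −0.69 to 0.93, and for Ces2a with Ces2c from −0.50 to 0.62. Over the 27 mice r was highest for Ces1d with Ces1e at 0.86, followed by Ces1e with Ces1f at 0.83, while the 3 pairs below 0 all joined Ces2c to Ces1c, Ces1d or Ces1e. The pairs within Ces1 had a median of 0.54 and the 3 within Ces2 a median of 0.18. Ces2a and Ces2c, which moved alike with the diet, had an r of 0.18 between mice of a group and of 0.80 without subtraction of the group means.

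**Figure D5:**
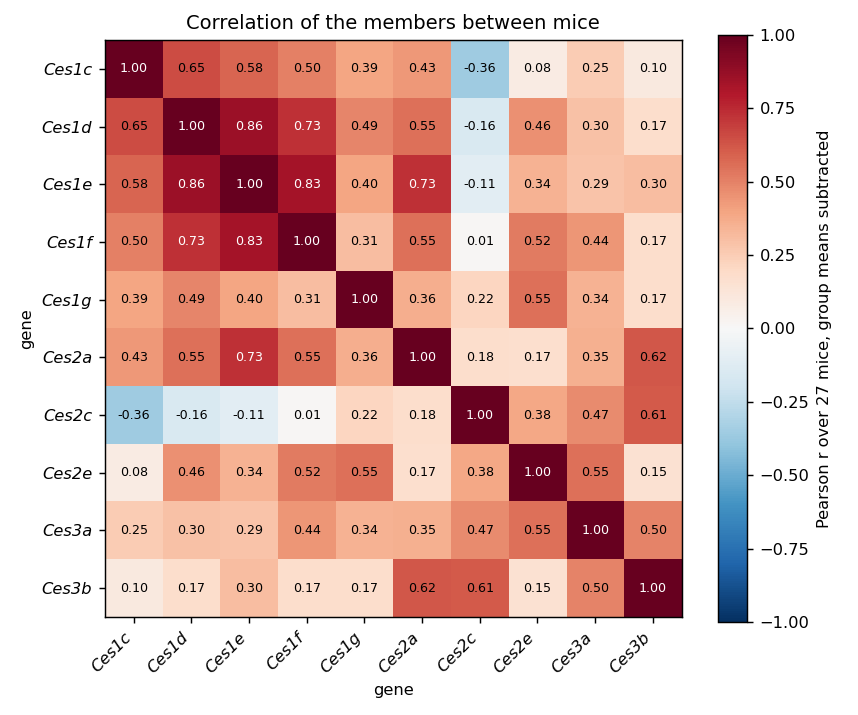
Pearson correlation between members over 27 mice of log2(CPM + 1) with the group means subtracted, from −1 (blue) to 1 (red). Ces1d, Ces1e and Ces1f form the most correlated block, with 0.86 for Ces1d and Ces1e, and Ces2c has r below 0 with Ces1c, Ces1d and Ces1e.

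Among 13916 genes outside the family, the gene most like each member by this measure had an r between 0.77 and 0.90. For Ces1e it was Inmt, a methyltransferase, at 0.90, and for Ces1f Ube2r2, a ubiquitin-conjugating enzyme, at 0.88. For Ces1d it was Cyp2c29, a drug-metabolizing cytochrome P450, at 0.83, and for Ces1c Serpina6, the corticosteroid-binding globulin of plasma, at 0.80. For Ces1g it was Gstt1, a glutathione transferase, at 0.77. Ces2a was most like Apoc1, an apolipoprotein of VLDL, at 0.85, Ces2c like 2200002D01Rik at 0.84, and Ces2e like Atg7, of the autophagy machinery, at 0.82. Ces3a was most like Ndufaf1, an assembly factor of respiratory complex I, at 0.80, and Ces3b like Mrps27, a mitochondrial ribosomal protein, at 0.77. Each is the highest of many correlations and carries no test.

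Other hydrolases of esters and lipids moved in both directions with the diet. Of 24 tested, 3 rose and 5 fell in controls, and 1 rose and 2 fell in HGFAC-KO mice, beside 4.93% and 5.60% of all genes in controls and 3.17% and 2.73% in HGFAC-KO mice. Their median log2 difference was −0.08 in controls and −0.03 in HGFAC-KO mice, against 0.00 over all genes in both. Mgll, the monoacylglycerol lipase, rose with a log2 change of 0.52 ± 0.08 (SE, edgeR adjusted p = 0.000762) in controls and 0.36 ± 0.08 (SE, adjusted p = 0.0178) in HGFAC-KO mice. Lipe, the hormone-sensitive lipase, fell by 0.55 ± 0.08 on the log2 scale (SE, adjusted p = 0.000557) in controls, and Pnpla6, a phospholipase, by 0.25 ± 0.04 (SE, adjusted p = 0.00108). Pnpla2, the adipose triglyceride lipase, fell by 0.36 in both genotypes (adjusted p = 0.00257 and 0.0377). None of the 24 passed between the genotypes in edgeR, with 1 on chow and 4 on HF/HS at an unadjusted p of 0.05, beside 5.98% and 9.64% of all genes. The lowest p on chow was that of Abhd6, a monoacylglycerol hydrolase, with a log2 difference of −0.20 ± 0.07 (SE, adjusted p = 0.801), and the lowest on HF/HS that of Pnpla6, with 0.15 ± 0.05 (SE, adjusted p = 0.447).

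Of 21 tested genes of triglyceride storage and VLDL assembly, 2 rose and 1 fell in controls, beside 10.5% of all genes passing, and the median log2 difference was 0.05. Lpin1, a phosphatidate phosphatase, rose with a log2 change of 1.00 ± 0.22 (SE, edgeR adjusted p = 0.0105), and Cideb, a lipid droplet protein of hepatocytes, rose with 0.23 ± 0.06 (SE, adjusted p = 0.0301). Tm6sf2, which takes part in lipidating VLDL, fell by 0.57 ± 0.12 on the log2 scale (SE, adjusted p = 0.00719). In HGFAC-KO mice 0 of the 21 passed in edgeR, beside 5.89% of all genes, and 4 had an unadjusted p below 0.05, beside 22.4% of all genes. Between the genotypes on HF/HS 0 passed in edgeR and 6 had an unadjusted p below 0.05 (9.64% of all genes), among them Tm6sf2 with a log2 difference of 0.49 ± 0.14 (SE, adjusted p = 0.376) and Lpin1 with −0.65 ± 0.22 (SE, adjusted p = 0.439).

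Of 24 nuclear receptors and other regulators, 3 passed with the diet in controls, beside 10.5% of all genes, and the median log2 difference was 0.06. All 3 rose: Ppara, the fatty acid sensor, with a log2 change of 0.42 ± 0.10 (SE, edgeR adjusted p = 0.0162), Ghr, the growth hormone receptor, with 0.17 ± 0.05 (SE, adjusted p = 0.0299), and Nr1h3, a liver X receptor, with 0.17 ± 0.05 (SE, adjusted p = 0.046). In HGFAC-KO mice Foxa2 alone passed, falling by 0.29 ± 0.08 on the log2 scale (SE, adjusted p = 0.0329). Between the genotypes 0 passed in edgeR, with 3 on chow and 1 on HF/HS at an unadjusted p of 0.05, beside 5.98% and 9.64% of all genes. The lowest p was that of Pparg, a lipogenic nuclear receptor, with a log2 difference of −0.46 ± 0.11 (SE, adjusted p = 0.801) on chow and −0.44 ± 0.20 (SE, adjusted p = 0.502) on HF/HS.

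Gusb, the beta-glucuronidase that egasyn holds in the ER, was the 1 gene of 12 for ER retrieval and beta-glucuronidase that passed, beside 10.5% of all genes in controls and 5.89% in HGFAC-KO mice. It fell from 36.6 ± 2.25 CPM (SD, n = 7) to 26.8 ± 1.29 CPM (SD, n = 7) in controls, a log2 change of −0.45 ± 0.05 (SE, edgeR adjusted p = 2.51e-05), and by 0.34 ± 0.08 on the log2 scale (SE, adjusted p = 0.02) in HGFAC-KO mice. Its partner Ces1e overlapped between the diets in both genotypes. P4hb, the protein disulfide isomerase of the ER, had a log2 difference of −0.17 ± 0.08 (SE, adjusted p = 0.206) in controls.

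Of the 25 protein-coding genes outside the family within 250 kb of a member, 20 were tested, and 4 passed in controls and 2 in HGFAC-KO mice, beside 10.5% and 5.89% of all genes. Nol3, an apoptosis repressor, and Hsf4, a heat shock factor, fell by 0.67 ± 0.15 and 0.44 ± 0.10 on the log2 scale (SE, edgeR adjusted p = 0.00821 and 0.0134). D230025D16Rik and B3gnt9 rose by log2 changes of 0.52 ± 0.11 and 0.46 ± 0.14 (SE, adjusted p = 0.00808 and 0.0404). In HGFAC-KO mice Hsf4 fell by 0.41 ± 0.07 on the log2 scale (SE, adjusted p = 0.0044) and Lpcat2 rose by 0.49 ± 0.14 (SE, adjusted p = 0.0487). The median log2 difference of the neighbours was −0.08 in controls and −0.03 in HGFAC-KO mice.

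Bulk liver RNA was measured, so fewer cells of a type and less RNA per cell cannot be told apart. All 12 hepatocyte markers were present. On chow they summed to a median of 92627 CPM in controls (88016 to 103705) and 105593 CPM in HGFAC-KO mice (97824 to 114765), and on HF/HS to 95354 CPM (88319 to 107820) and 114042 CPM (98978 to 126966). The medians of the sums were higher in HGFAC-KO mice on both diets, but the single markers went both ways. Their genotype log2 difference was below 0 for 4 of the 12 on chow and 6 of the 12 on HF/HS, with medians of 0.05 and −0.04. Of all genes, 48.8% and 50.5% were below 0. With the diet 3 of the 12 hepatocyte markers passed in controls and 2 in HGFAC-KO mice, beside 10.5% and 5.89% of all genes. The 7 sinusoidal endothelial markers summed to between 132 and 221 CPM in controls on chow and 157 and 262 CPM on HF/HS, and to between 114 and 182 CPM and 147 and 227 CPM in HGFAC-KO mice. The 9 Kupffer cell and macrophage markers summed to between 160 and 345 CPM in controls on chow and 192 and 402 CPM on HF/HS, and to between 150 and 231 CPM and 206 and 344 CPM in HGFAC-KO mice. Of these 4 rose with the diet in HGFAC-KO mice (Adgre1, Clec4f, Cd5l and Cd68) beside 3.17% of all genes higher there. In controls 0 of the 9 passed in edgeR, beside 4.93% of all genes higher, and 3 had an unadjusted p below 0.05, beside 25.4% of all genes. In controls S100a8 rose, 1 of 8 lymphocyte and neutrophil markers tested, beside 4.93% of all genes higher. Lrat fell there, 1 of 8 stellate cell markers tested, beside 5.60% of all genes lower, and 2 of these 8 had a log2 difference below 0. In HGFAC-KO mice Ptprc rose, 1 of 7 lymphocyte and neutrophil markers tested, as did Stab2, 1 of 7 sinusoidal endothelial markers, beside 3.17% of all genes higher. None of the 5 cholangiocyte or 2 adipocyte markers tested passed with the diet in edgeR, with 0 at an unadjusted p of 0.05 in either genotype. Lep, a defining adipocyte marker, had no count in any library. In the genotype comparisons and the interaction none of the marker lists held a gene that passed. The 9 pancreas and intestine markers summed to a median of 69.2 CPM (68.1 to 86.8) on chow and 129.95 CPM (78.6 to 135) on HF/HS in controls, and to 67.6 CPM (52.3 to 78.7) and 88.1 CPM (63.6 to 113) in HGFAC-KO mice. The sum moved with the diet, with overlapping ranges. Of these markers 2 were tested, and Fabp2 rose in controls, while Prss1 and Amy2a5 had no count in any group. The part of these cells in the member differences was not tested.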

How the data were processed

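Liver RNA of 27 mice was sequenced as stranded mRNA libraries in 50-base pairs. Per the labels, reads were aligned with HISAT2 to GRCm38, and the authors counted them per gene with featureCounts 1.6.3. The deposited values are raw counts. Strand and multi-mapping settings are not given in the sources used here. Rows without a gene name (4.13% to 12.1% of a library's counts) were left out, and 0 deposited columns lacked a sample.

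Counts were analysed in R 4.3.3 with edgeR 4.0.16: filterByExpr (minimum count 10, minimum total 15), TMM scaling and the quasi-likelihood test in each pair of groups, with Benjamini-Hochberg adjustment over all genes tested and a threshold of 0.05. The interaction was fitted over all 27 mice. Alternatives were DESeq2 1.42.0, limma 3.58.1 (voom), upper-quartile and RLE scaling, no low-count filter, at least 10 counts in every library, a replicate block, a single fit of all mice, and each mouse left out in turn. The test script was tested on simulated data. Correlations used log2(CPM + 1).

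The members and the 13 gene lists, of which 8 are cell markers, were chosen with earlier results of these data known. Genes named were all carboxylesterase symbols, Hgfac, up to 3 genes of each list that is not a marker list by smallest diet p in controls and up to 2 by smallest p in each genotype comparison, the gene most correlated with each member, and protein-coding genes within 250 kb. Some other genes of a list that passed were named after their values were seen. Others that passed with the diet, among them Bche, Bphl, Lipc and Pon3 in controls and Abhd6 in HGFAC-KO mice, enter the counts only. The labels number livers within a group without naming animals, so p-values measure the spread between these samples. No libraries of a group were alike within counting noise (chi-square per gene of at least 17.7). Same-numbered livers of different groups had correlated deviations of −0.34 to 0.46, so the numbers were not taken to pair them.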

Additional observations from a re-analysis of the deposited data

Results flagged for a closer look

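In 40 sets of values, 10 members in 4 groups, 2 held a mouse far from the others of its group. Chance gives about 1 in 20, so this is no more than chance gives. Ces1f in control replicate 5 on chow was at 333 CPM, with the other 6 controls on chow between 428 and 498 CPM. Ces2e in HGFAC-KO replicate 5 on HF/HS was at 153 CPM, with the other 6 mice between 87.7 and 107 CPM. The same HGFAC-KO mouse held the highest Ces1g level of its group, at 120 CPM.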

How the results depend on the processing

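In controls the same 5 members passed HF/HS against chow in 22 of 22 alternatives, and Ces1b and Ces4a passed in all alternatives of both genotypes. In HGFAC-KO mice 2 members passed in edgeR, 4 with DESeq2 (Ces1g and Ces3a added), 3 with limma or in a single fit of all mice (Ces1g added), 1 without a filter on low counts (Ces2a) and between 1 and 3 when 1 mouse was left out. With the replicate block 5 members passed in controls and 3 in HGFAC-KO mice (Ces1g added), and it changed no other member call. Between the genotypes and in the interaction, 0 members passed in any alternative, although with DESeq2 on chow a member without an adjusted p could not pass. The alternative log2 differences of the members, 810 leaving out a mouse and 390 under other settings, all moved by less than 1 SD between mice of a group (on the log2 scale, averaged over the groups compared), a wider bound than the SE of a difference. The sign changed in 56 of them, for differences of at most 0.06 and for 0 of those that passed the test. Of 30 alternative levels per kilobase, 14 moved by more than 1 SD, all with another gene length. Over all genes, calls went from 1424 to 774 with the replicate block in controls, from 802 to 1401 with DESeq2 in HGFAC-KO mice, from 1 to 13 with DESeq2 between genotypes on chow (adjusted p given for 1993 genes), and from 2 to 55 with DESeq2 and 1 in the single fit of all mice on HF/HS. Leaving out 1 mouse moved them from 802 to 467 (HGFAC-KO replicate 2 on chow) and on HF/HS from 2 to 5 (control replicate 7) or 11 (HGFAC-KO replicate 5). The cause was not tested. How far the low counts of Ces2c, the lowest of the members, and sequence shared between genes affect the values was not tested.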
